A study of Mus musculus with 8 samples.

Results

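Nodes of Ranvier are the short gaps in myelin where a nerve impulse is regenerated, and they are flanked by paranodes, where the loops of the myelinating glial cell are fastened to the axon. Adhesion proteins on the axon (contactins, CASPR, neurofascin, NrCAM) bind partners on the glial cell or in the matrix around the gap, and cytoskeletal scaffolds beneath the axonal membrane (ankyrin G, spectrin, protein 4.1B) hold these proteins and the sodium channels in place. In peripheral nerve the glial cell is the Schwann cell, whose microvilli and secreted matrix cover the node.

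The genes described here are 10 genes of that assembly, Cntn1, Cntnap1, Cntn2, Nfasc, Nrcam, Gldn, Hapln2, Ank3, Sptbn4 and Epb4.1l3. They were picked by symbol from the 23356 gene rows of the deposited table, and all 10 were found. A mean of at least 1 FPKM (fragment count per gene, scaled by gene length and by library size) over the libraries was needed for testing. Of the 10 genes, 8 passed this level, as did 12530 genes of the table, and Cntn2 and Sptbn4 lay below it. Hapln2 passed it through its values in the transgenic nerves, since its mean in both other genotypes was below 1 FPKM, and Cntn1 passed it through its values in the nerves without the transgene.

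RNA was sequenced from sciatic nerves of F1 mice of C57BL/6 and FVB/N, all at postnatal day 30, in 4 genotypes with 2 libraries each. HA-NRG1 type III/+ mice carry a tagged transgene for type III neuregulin 1, a membrane-bound axonal ligand that controls myelination by Schwann cells. The combined genotype HA-NRG1 type III/+:Q215X/+ carries that transgene together with the Q215X allele, Q215X/+ mice carry the allele alone, and wild type (WT) mice carry neither. The study's title names a mouse model of congenital hypomyelination neuropathy. The sources used here do not name the promoter of the transgene. The question the design puts is what the transgene changes with and without the Q215X mutation. Each genotype has a library in set 0 and a library in set 1, named after the endings of the columns.

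Whether the libraries of a genotype stem from different mice is not said in the labels, and each p-value therefore reflects the spread among libraries alone, part of which may be technical. By Xist and Ddx3y, both Q215X/+ libraries and 1 of HA-NRG1 type III/+, that of set 0, were male and the other 5 female. Sex and genotype therefore cannot be told apart in HA-NRG1 type III/+:Q215X/+ against Q215X/+ or in Q215X/+ against WT. The average over both backgrounds, used below, includes the first of these comparisons. FPKM carries no read counts, and relative depth, estimated from steps between low values, ran from 0.727 to 1.09 with the set 0 WT library as 1. The set 1 library of Q215X/+ stood apart in 7 skeletal muscle markers, which summed to 897 FPKM there against 2.94 to 71.7 FPKM in the other 7 libraries. In that library Cntn1, Hapln2 and Ank3 were at 2.55, 0.838 and 34.1 FPKM, each on the same side of all 4 transgenic libraries as the other libraries without the transgene.

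The genes that differed most with the transgene were Cntn1, which encodes contactin 1, and Hapln2, which encodes a link protein of the nodal matrix. Both are shown here by the bases just before their annotated starts, as the reference sequence of the pair whose RNA moved in opposite directions. These are RefSeq sequences of GRCm38.p6, the reference build that mm10 names, written 5′ to 3′ on the strand of the gene. Capitals mark matches, on either strand, to a CCAAT box (CCAAT), a core of EGR family sites (GTGGGNG) or a SOX motif (ACAAAG or ACAATG), all searched after the values were known. Cntn1 is shown for chr15:92050915-92051151 on the plus strand and Hapln2 for chr3:88027512-88027761 on the minus strand.
Cntn1: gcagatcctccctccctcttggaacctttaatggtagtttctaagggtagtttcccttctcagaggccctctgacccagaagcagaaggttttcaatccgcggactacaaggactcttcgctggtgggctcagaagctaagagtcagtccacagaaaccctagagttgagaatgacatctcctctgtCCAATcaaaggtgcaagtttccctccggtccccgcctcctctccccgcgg
Hapln2: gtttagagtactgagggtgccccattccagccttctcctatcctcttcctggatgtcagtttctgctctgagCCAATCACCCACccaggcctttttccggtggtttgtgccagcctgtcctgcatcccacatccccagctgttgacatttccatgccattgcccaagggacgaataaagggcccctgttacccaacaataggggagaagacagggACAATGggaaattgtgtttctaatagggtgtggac

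The 237 bases of Cntn1 held 1 CCAAT box and no match to the other motifs. The 250 bases of Hapln2 held 1 CCAAT box, 1 EGR core on the opposite strand directly after it, read as CACCCAC, and 1 SOX motif. Such matches are common: of 32851 RefSeq promoter windows, 33.8% held a CCAAT box, 28.1% an EGR core and 25.2% a SOX motif within 250 bases, and 32.8% held a CCAAT box within 237 bases. A match describes these letters and does not mark a bound site. The table of promoter sequences held a window for 8 of the 10 genes, and for 4 of them it lay at the annotated gene start.

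Cntn1 fell in transgenic nerves on both backgrounds, to about the same level with and without the Q215X mutation. Contactin 1 is a membrane-anchored protein of the immunoglobulin superfamily that joins CASPR on the axonal side of the paranode, and its gene spans chr15:92051152-92341967 on the plus strand. It had 0.622 FPKM (set 0) and 0.597 FPKM (set 1) in HA-NRG1 type III/+. With sets given likewise, it had 0.662 and 0.491 FPKM in HA-NRG1 type III/+:Q215X/+. The nerves without the transgene had 2.97 and 2.55 FPKM in Q215X/+ and 2.99 and 2.80 FPKM in WT. All 4 transgenic libraries lay below all 4 others, with a wide gap between them. The mean level was 0.609 ± 0.0174 FPKM in HA-NRG1 type III/+ and 2.90 ± 0.134 FPKM in WT (SD, n = 2 each), a ratio of 0.210. On the mutant background it was 0.577 ± 0.121 FPKM in HA-NRG1 type III/+:Q215X/+ and 2.76 ± 0.302 FPKM in Q215X/+, a ratio of 0.209. In whole nerve, fewer cells of a type and less RNA per cell cannot be told apart, here or for any gene below.

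In log2(FPKM + 1), a scale that understates the change of a low gene, Cntn1 fell by 1.27 in HA-NRG1 type III/+ against WT (SE 0.11, Benjamini-Hochberg adjusted p = 0.0299 in limma). It was the 1 gene of the 8 tested here that was called in this comparison, in which 0.0638% of all tested genes were called. Between HA-NRG1 type III/+:Q215X/+ and Q215X/+, where 0.0399% were called, Cntn1 fell by 1.25 (SE 0.11, limma adjusted p = 0.0446) and was again the 1 call. Within set 0 the difference was −1.30 on the WT background and −1.26 on the mutant background, and within set 1 it was −1.25 on both. With the set as a replicate block the adjusted p-values were 0.00842 and 0.0120. Each of these calls with the block failed in some fits with 1 library left out. On the same scale without the filter of a mean of at least 1 FPKM, neither call held without the block. With the block, only the call on the mutant background then held. Over the average of both backgrounds, which share no library, Cntn1 fell by 1.26 (SE 0.08, limma adjusted p = 0.00387). The calls on the single backgrounds without the block ended when any 1 of the 8 libraries was left out, whereas the call over both backgrounds held without each of them. With a term for sex, which rests on the 2 libraries of HA-NRG1 type III/+ alone, the adjusted p was 0.153 and 0.829 on the single backgrounds and 0.0259 over both. With that term and the block it was 0.0817, 0.284 and 0.0114.

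**Figure D1:**
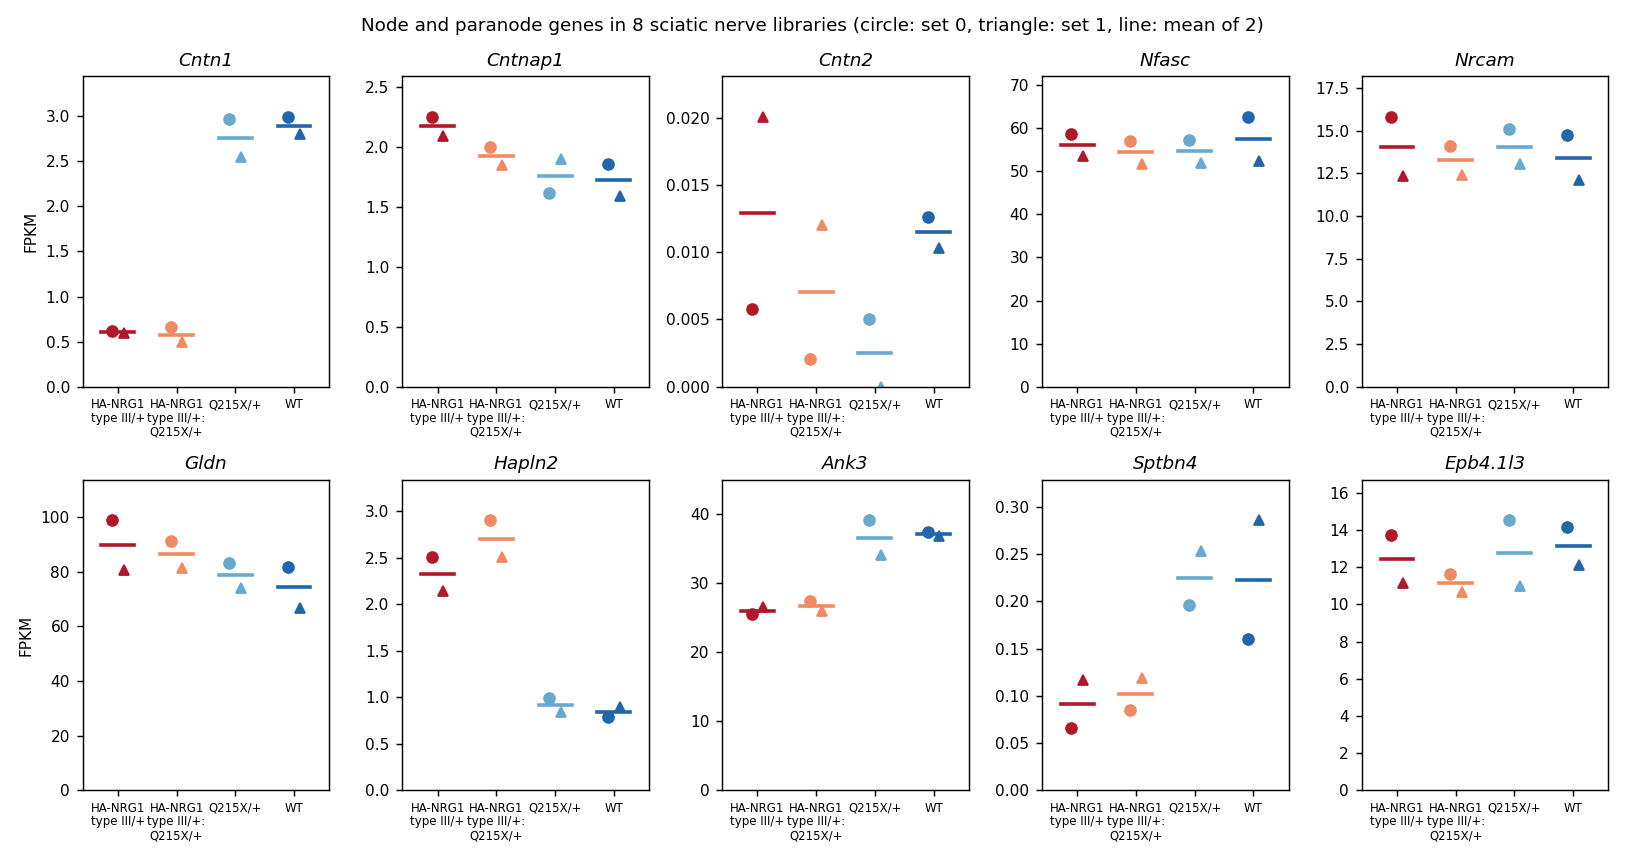
FPKM of the 10 genes in the 8 libraries, 1 panel per gene with a linear axis from 0; circles are set 0, triangles set 1, and the line is the mean of 2 libraries. Cntn1, Ank3 and Sptbn4 were lower and Hapln2 was higher in all 4 transgenic libraries than in all 4 others, while Cntn2 was near 0 throughout.

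Cntnap1 encodes CASPR, the partner of contactin 1 on the paranodal axon, and it did not fall with Cntn1. Cntnap1 had 2.25 and 2.09 FPKM in HA-NRG1 type III/+ and 1.99 and 1.85 FPKM in HA-NRG1 type III/+:Q215X/+. It had 1.61 and 1.90 FPKM in Q215X/+ and 1.86 and 1.59 FPKM in WT. The HA-NRG1 type III/+ libraries lay above both WT libraries, and the groups overlapped on the mutant background. Over both backgrounds the difference was 0.15 in log2(FPKM + 1), with a 95% interval of −0.03 to 0.33 (limma adjusted p = 0.564). The FPKM ratio of Cntn1 to Cntnap1 was 0.276 and 0.285 in HA-NRG1 type III/+ and 0.332 and 0.266 in HA-NRG1 type III/+:Q215X/+. That ratio was 1.84 and 1.34 in Q215X/+ and 1.61 and 1.76 in WT. Cntn1 RNA thus stood above that of its partner in each nerve library without the transgene and below it in each transgenic one. Values of whole nerve do not show which cells the RNA came from or how much protein the axon held, here or for the other genes. Cntnap1 lies at chr11:101174617-101190724.

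Cntn2, which encodes the contactin TAG-1 of the juxtaparanode, the zone next to the paranode, was close to the floor of the table. Its highest value in any library was 0.0201 FPKM, in HA-NRG1 type III/+ of set 1, while it was listed at 0 in set 1 of Q215X/+. The transgenic libraries ran from 0.00206 to 0.0201 FPKM and the others from 0 to 0.0126 FPKM, so the groups overlapped. At these levels no difference was detectable, and Cntn2 entered a test only without the filter, where its difference over both backgrounds was 0.0043 (limma adjusted p = 0.966).

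Nfasc, which encodes neurofascin, was among the highest of the 10 genes and did not differ by genotype beyond the spread between libraries. Neurofascin is made as a glial form at the paranode and an axonal form at the node, and gene FPKM does not separate them. It had 58.6 and 53.5 FPKM in HA-NRG1 type III/+, against 62.6 and 52.4 FPKM in WT. It had 57.1 and 51.6 FPKM in HA-NRG1 type III/+:Q215X/+, against 57.3 and 51.9 FPKM in Q215X/+. Set 0 was above set 1 in all 4 genotypes, and the groups overlapped on both backgrounds. The difference over both backgrounds was −0.02 (95% interval −0.23 to 0.19, limma adjusted p = 0.992).

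Nrcam encodes NrCAM, a relative of neurofascin that binds gliomedin at the node. It had 15.8 and 12.3 FPKM in HA-NRG1 type III/+, against 14.7 and 12.1 FPKM in WT. It had 14.1 and 12.4 FPKM in HA-NRG1 type III/+:Q215X/+, against 15.1 and 13.0 FPKM in Q215X/+. The groups overlapped on both backgrounds, and the difference over both was −0.01 (95% interval −0.27 to 0.25, limma adjusted p = 0.998).

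Gldn, the gene of gliomedin, a protein that Schwann cell microvilli secrete and that gathers neurofascin and NrCAM at the forming node, had the highest level of the 10 genes. It had 98.9 and 80.6 FPKM in HA-NRG1 type III/+, against 81.9 and 66.9 FPKM in WT. It had 91.3 and 81.5 FPKM in HA-NRG1 type III/+:Q215X/+, against 83.2 and 74.2 FPKM in Q215X/+. The groups overlapped on both backgrounds, although within each set the transgenic library was higher on both. In limma without the block the difference over both backgrounds was 0.20 (SE 0.11, adjusted p = 0.627), and with the set as a replicate block it passed the test (SE 0.04, adjusted p = 0.0440). That call ended when any 1 library was left out and with a term for sex. Gldn lies at chr9:54286486-54341777.

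Hapln2 rose in transgenic nerves on both backgrounds. It encodes a link protein, known from mouse brain, that ties the proteoglycan versican to hyaluronan in the matrix around nodes, and it lies at chr3:88020558-88027511 on the minus strand. Hapln2 had 2.50 and 2.14 FPKM in HA-NRG1 type III/+, against 0.785 and 0.894 FPKM in WT. It had 2.90 and 2.51 FPKM in HA-NRG1 type III/+:Q215X/+, against 0.991 and 0.838 FPKM in Q215X/+. Every transgenic library was above every other library. The mean level was 2.32 ± 0.260 FPKM in HA-NRG1 type III/+ and 0.839 ± 0.0768 FPKM in WT (SD, n = 2 each), a ratio of 2.77. It was 2.71 ± 0.277 FPKM in HA-NRG1 type III/+:Q215X/+ and 0.915 ± 0.108 FPKM in Q215X/+, a ratio of 2.96.

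On the log2(FPKM + 1) scale the difference in Hapln2 was 0.85 against WT (SE 0.11, limma adjusted p = 0.115) and 0.95 against Q215X/+ (SE 0.11, limma adjusted p = 0.0786). Neither passed the test without the block, and both did with the set as a replicate block, at adjusted p = 0.0270 and 0.0264. Over both backgrounds Hapln2 rose by 0.90 (SE 0.08, limma adjusted p = 0.0144), and 0.00379 with the block. Left out 1 at a time, the set 0 library of WT, the set 1 library of Q215X/+ and either library of HA-NRG1 type III/+:Q215X/+ ended the call without the block. With the block it held without each of the 8 libraries. With a term for sex the adjusted p over both backgrounds was 0.0476, and 0.0231 with the block as well.

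Ank3, the gene of ankyrin G, which anchors sodium channels and neurofascin to the cytoskeleton of the nodal axon, was lower in all transgenic libraries. It had 25.5 and 26.5 FPKM in HA-NRG1 type III/+, against 37.4 and 36.9 FPKM in WT. It had 27.5 and 26.0 FPKM in HA-NRG1 type III/+:Q215X/+, against 39.1 and 34.1 FPKM in Q215X/+. The groups did not overlap on either background, and the ratio of means was 0.700 to WT and 0.731 to Q215X/+. On the log2(FPKM + 1) scale the difference was −0.50 against WT (limma adjusted p = 0.208) and −0.44 against Q215X/+ (limma adjusted p = 0.261), and with the set as a replicate block both passed, at adjusted p = 0.0350 and 0.0451. Over both backgrounds Ank3 fell by 0.47 (SE 0.06, limma adjusted p = 0.0417), and 0.00650 with the block. Without the block this call ended when any 1 library was left out, and with the block it ended without either library of HA-NRG1 type III/+:Q215X/+. With a term for sex the adjusted p was 0.148, and 0.0276 with the block as well. Ank3 spans chr10:69533486-70027436 with 9 curated RefSeq transcripts, which gene FPKM does not separate.

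Sptbn4 encodes βIV spectrin, which links ankyrin G to actin at the node, and was well below 1 FPKM in every library. It had 0.0655 and 0.116 FPKM in HA-NRG1 type III/+, against 0.160 and 0.286 FPKM in WT. It had 0.0847 and 0.119 FPKM in HA-NRG1 type III/+:Q215X/+, against 0.196 and 0.254 FPKM in Q215X/+. The transgenic libraries lay below the others without overlap. In limma without a filter on low values, where 0.313% of 18870 genes were called over both backgrounds, the difference was −0.16 (SE 0.04, adjusted p = 0.206). With the set as a replicate block it fell at adjusted p = 0.0396, where 3.17% of genes were called.

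Epb4.1l3 encodes protein 4.1B, which connects the CASPR complex to the axonal cytoskeleton. It had 13.7 and 11.2 FPKM in HA-NRG1 type III/+, against 14.2 and 12.1 FPKM in WT. It had 11.6 and 10.7 FPKM in HA-NRG1 type III/+:Q215X/+, against 14.5 and 11.0 FPKM in Q215X/+. Within each set the transgenic library was lower, but the groups overlapped. The difference over both backgrounds was −0.12 (95% interval −0.40 to 0.15, limma adjusted p = 0.856).

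Across the 10 genes, the 4 transgenic libraries did not overlap the 4 others for Cntn1, Ank3, Sptbn4 and Hapln2. Of the 12530 tested genes 10.1% showed such a gap, 4.88% higher and 5.2% lower in transgenic nerves, and so did 8.5% of the 18870 genes above 0. Without the block, 3 of the 8 tested genes were called over both backgrounds, Cntn1 and Ank3 lower and Hapln2 higher, where 0.99% of all tested genes were called, 0.455% lower and 0.535% higher. With the block, 4 were called, Gldn higher as well, where 7.1% of all tested genes were, 3.69% lower and 3.42% higher. Because the 10 genes were chosen with earlier results of these data known, these shares are a description and not a test of enrichment. On the single backgrounds with the block, Cntn1, Ank3 and Hapln2 were called in each, where 2.11% of genes were called in HA-NRG1 type III/+ against WT and 1.72% in HA-NRG1 type III/+:Q215X/+ against Q215X/+. These counts of 3 were 0 or 1 without either library of HA-NRG1 type III/+ or of HA-NRG1 type III/+:Q215X/+ or without the set 0 library of WT, in the first also without the set 1 library of WT and in the second without either library of Q215X/+, and they were 0 with a term for sex. The combined genotype was also set against WT, a comparison that shares libraries with both of these. There Cntn1 fell by 1.31 (limma adjusted p = 0.0157) where 0.112% of genes were called, and the difference was 1.01 for Hapln2 (limma adjusted p = 0.0542) and −0.46 for Ank3 (limma adjusted p = 0.217). With the block all 3 passed, at adjusted p = 0.00470, 0.0144 and 0.0350, where 2.39% were called.

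The Q215X mutation by itself left no detected difference in these genes. In Q215X/+ against WT, 0 of the 8 tested genes were called in limma, with or without the block, and none reached an unadjusted p of 0.05 in either fit, where 0.00798% of all tested genes were called in each. Their differences ran between −0.07 for Nfasc and 0.08 for Gldn, with 95% intervals of −0.36 to 0.22 and −0.28 to 0.45. For Cntn1 the interval was −0.32 to 0.21, for Hapln2 −0.22 to 0.33 and for Ank3 −0.24 to 0.20, all on the log2(FPKM + 1) scale. The interaction, which is the transgene effect in the mutant minus that in WT, was likewise called for 0 of 8, and none reached an unadjusted p of 0.05 in either fit, where 0.00798% of genes were called in each fit. It was 0.02 for Cntn1 (95% interval −0.35 to 0.40), 0.10 for Hapln2 (−0.29 to 0.49) and 0.06 for Ank3 (−0.25 to 0.38). These intervals do not show that the effects were equal on both backgrounds. Sex and genotype cannot be told apart in the interaction either, since both Q215X/+ libraries were male.

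**Figure D2:**
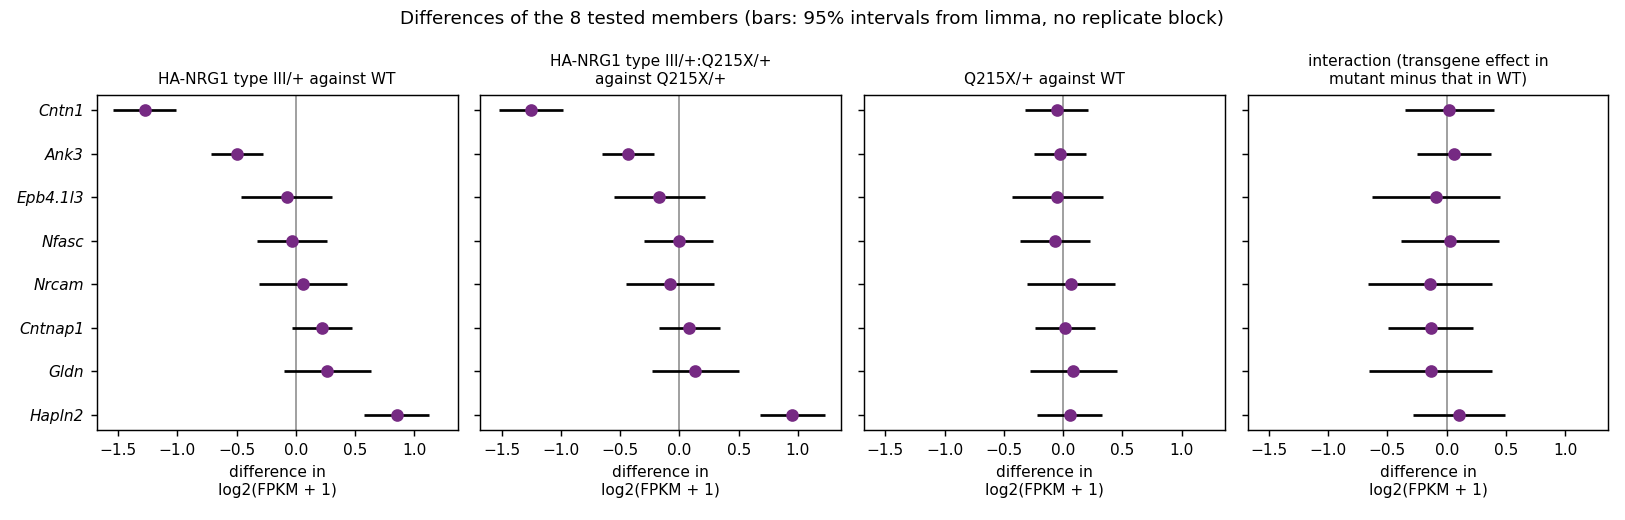
Differences in log2(FPKM + 1) of the 8 tested genes in 4 comparisons, as points with unadjusted 95% intervals from limma without the replicate block. Cntn1 lay at −1.27 and −1.25 and Hapln2 at 0.85 and 0.95 in the transgene comparisons, while in Q215X/+ against WT and in the interaction every interval crossed 0.

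In WT nerves the order of levels was Gldn (74.4 ± 10.6 FPKM), Nfasc (57.5 ± 7.20), Ank3 (37.1 ± 0.365), Nrcam (13.4 ± 1.85), Epb4.1l3 (13.2 ± 1.45), Cntn1 (2.90 ± 0.134), Cntnap1 (1.73 ± 0.189), Hapln2 (0.839 ± 0.0768), Sptbn4 (0.223 ± 0.0891) and Cntn2 (0.0115 ± 0.0016), as mean FPKM with SD over 2 libraries. The neighbours Nrcam and Epb4.1l3 did not differ beyond their spread, and the other neighbours did not overlap. In HA-NRG1 type III/+ Hapln2 (2.32 ± 0.260 FPKM) and Cntnap1 (2.17 ± 0.111 FPKM) overlapped, and both stood above Cntn1 (0.609 ± 0.0174 FPKM). In HA-NRG1 type III/+:Q215X/+ Hapln2 (2.71 ± 0.277 FPKM), Cntnap1 (1.92 ± 0.104 FPKM) and Cntn1 (0.577 ± 0.121 FPKM) were apart, in the opposite order to WT. The sets also differed. Nfasc, Nrcam, Gldn, Epb4.1l3 and Cntn1 were lower in set 1 than in set 0 in all 4 genotypes, by 0.10 for Cntn1 up to 0.24 for Nrcam and Epb4.1l3 on average in log2(FPKM + 1), while Sptbn4 was higher in set 1 in all 4, and the median of all tested genes was 0.03 higher in set 1.

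Among the 8 tested members, the 2 with the widest range over the libraries were Cntn1 (1.42 in log2(FPKM + 1)) and Hapln2 (1.13). Likeness of pattern was measured as the root mean square difference in log2(FPKM + 1), with each gene centred on its mean over the 8 libraries. The closest to Cntn1 were Spint1, which encodes a serine protease inhibitor (difference 0.0994), Slc7a2, a cationic amino acid transporter (0.124), Tubb4a, a beta tubulin (0.190), Dpysl5, a protein of growing axons (0.192), and Slc9a3, a sodium and proton exchanger (0.216). Spint1 ran from 6.20 to 7.46 FPKM in the transgenic libraries and from 16.1 to 18.7 FPKM in the others. For Slc7a2 these ranges were 12.2 to 14.7 and 30.9 to 31.4 FPKM. Neither gene overlapped between transgenic and other libraries, and by the same measure Ank3, the closest of the other members, was 0.401 from Cntn1. The closest to Hapln2 were Gpr85, an orphan receptor (0.115), C1ql3, a secreted C1q-like protein (0.122), Rims1, a protein of presynaptic release sites (0.123), and Ptpru, a receptor tyrosine phosphatase (0.128). Gpr85 ran from 4.90 to 5.65 FPKM in the transgenic libraries and from 2.34 to 3.06 FPKM in the others. C1ql3 ran from 79.9 to 92.8 and from 48.4 to 61.0 FPKM. These genes were picked for their likeness from all tested genes, so their levels are a description.

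**Figure D3:**
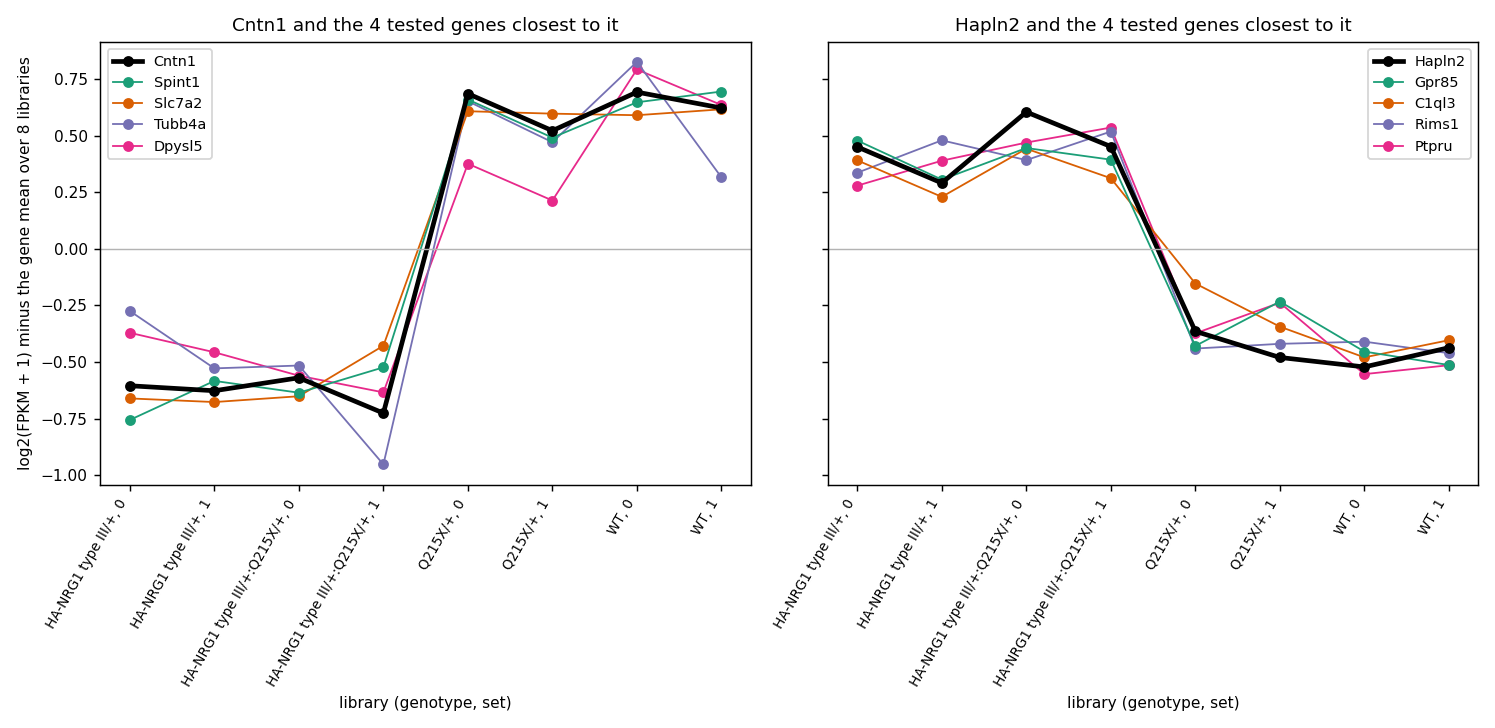
Level of Cntn1 (left) and Hapln2 (right, thick black lines) and of the 4 tested genes closest to each, as log2(FPKM + 1) minus the gene's mean over 8 libraries, across the libraries ordered by genotype and set. Each group of lines separates the 4 transgenic libraries from the 4 others.

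Other genes of the node and its surroundings were read from 5 lists of 59 genes, of which 47 were tested. Over both backgrounds 1 of the 47 was called without the block, which is 2.13% beside 0.99% of all tested genes. With the block 10 were called, 4 higher and 6 lower, which is 21.3% beside 7.1%. The lists were chosen with earlier results of these data known, so these shares are a description and not a test of enrichment. Of 12 genes of axonal node channels and spectrins, 8 were tested and 0 called in either fit, with 0 at an unadjusted p under 0.05 without the block. The smallest p-values there were those of Scn8a, the main nodal sodium channel (difference 0.10, limma adjusted p = 0.763), and Ank2 (−0.08, limma adjusted p = 0.870). The median difference was −0.01 in this list, which is also the median of all tested genes.

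Of 11 juxtaparanodal genes 8 were tested, and without the block 0 were called, with 3 at an unadjusted p under 0.05 in limma. With the block 2 fell and 1 rose. Adam22, which encodes a partner of axonal potassium channels, had 2.62 and 2.74 FPKM in HA-NRG1 type III/+ and 2.85 and 2.59 FPKM in HA-NRG1 type III/+:Q215X/+, against 5.01 and 4.14 FPKM in Q215X/+ and 4.31 and 3.44 FPKM in WT. It fell by 0.49 (limma adjusted p = 0.0128 with the block, 0.0761 without). Kcna2, a potassium channel of the juxtaparanode, fell by 0.35 (adjusted p = 0.0259 with the block, 0.437 without), and Kcnab1, a subunit of such channels, rose by 0.29 (adjusted p = 0.0351 with the block, 0.178 without). Adam22 did not overlap between transgenic and other libraries, and it was also called with the block in HA-NRG1 type III/+:Q215X/+ against Q215X/+.

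Of 9 internodal adhesion and protein 4.1 genes, all tested, Epb4.1, which encodes protein 4.1R of red blood cells and other tissues, was the 1 call in either fit. It fell by 0.46 (SE 0.06, limma adjusted p = 0.0332). Epb4.1 averaged 4.67 ± 0.317 FPKM in HA-NRG1 type III/+, against 6.18 ± 0.125 FPKM in WT, and 5.71 ± 0.370 FPKM in HA-NRG1 type III/+:Q215X/+, against 9.04 ± 0.0525 FPKM in Q215X/+ (SD, n = 2 each). The transgenic libraries, 5.97 FPKM at most, lay below all others, 6.09 FPKM at least. The 5 red blood cell markers summed to 49.1 to 178 FPKM in the transgenic libraries and to 239 to 1279 FPKM in the others, highest in Q215X/+, and their part in this result was not tested. Cadm1, an adhesion gene of the internode, had the next smallest p (difference 0.18, limma adjusted p = 0.312).

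Of 13 genes of the junctions that Schwann cells form with themselves, all tested, 0 were called without the block, with 4 at an unadjusted p under 0.05 in limma. With the block Mpdz, a scaffold of tight junctions, fell by 0.28 (limma adjusted p = 0.0106) and Gjc3, a connexin, fell by 0.25 (adjusted p = 0.0220). Of 14 genes of microvilli and nodal matrix, 9 were tested, with 0 called without the block and 1 at an unadjusted limma p under 0.05. With the block Tnc, the matrix protein tenascin C, rose by 0.69 (limma adjusted p = 0.00531), Gpc1, the proteoglycan glypican 1, rose by 0.25 (adjusted p = 0.0195), Ezr, the microvillar protein ezrin, rose by 0.20 (adjusted p = 0.0385) and Slc9a3r1, an ezrin-binding scaffold, fell by 0.23 (adjusted p = 0.0351). Tnc had 4.12 and 2.94 FPKM in HA-NRG1 type III/+, against 2.48 and 1.36 FPKM in WT, and 4.86 and 3.48 FPKM in HA-NRG1 type III/+:Q215X/+, against 2.86 and 1.49 FPKM in Q215X/+. Tnc was higher in set 0 in each genotype and higher in the transgenic library within each set. Of 17 paralogs of the 10 genes, 5 were tested and 0 called in either fit, with 1 at an unadjusted p under 0.05. The smallest p-values were those of Epb4.1l4a (difference −0.24, limma adjusted p = 0.292) and Sptb (−0.16, limma adjusted p = 0.637).

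**Figure D4:**
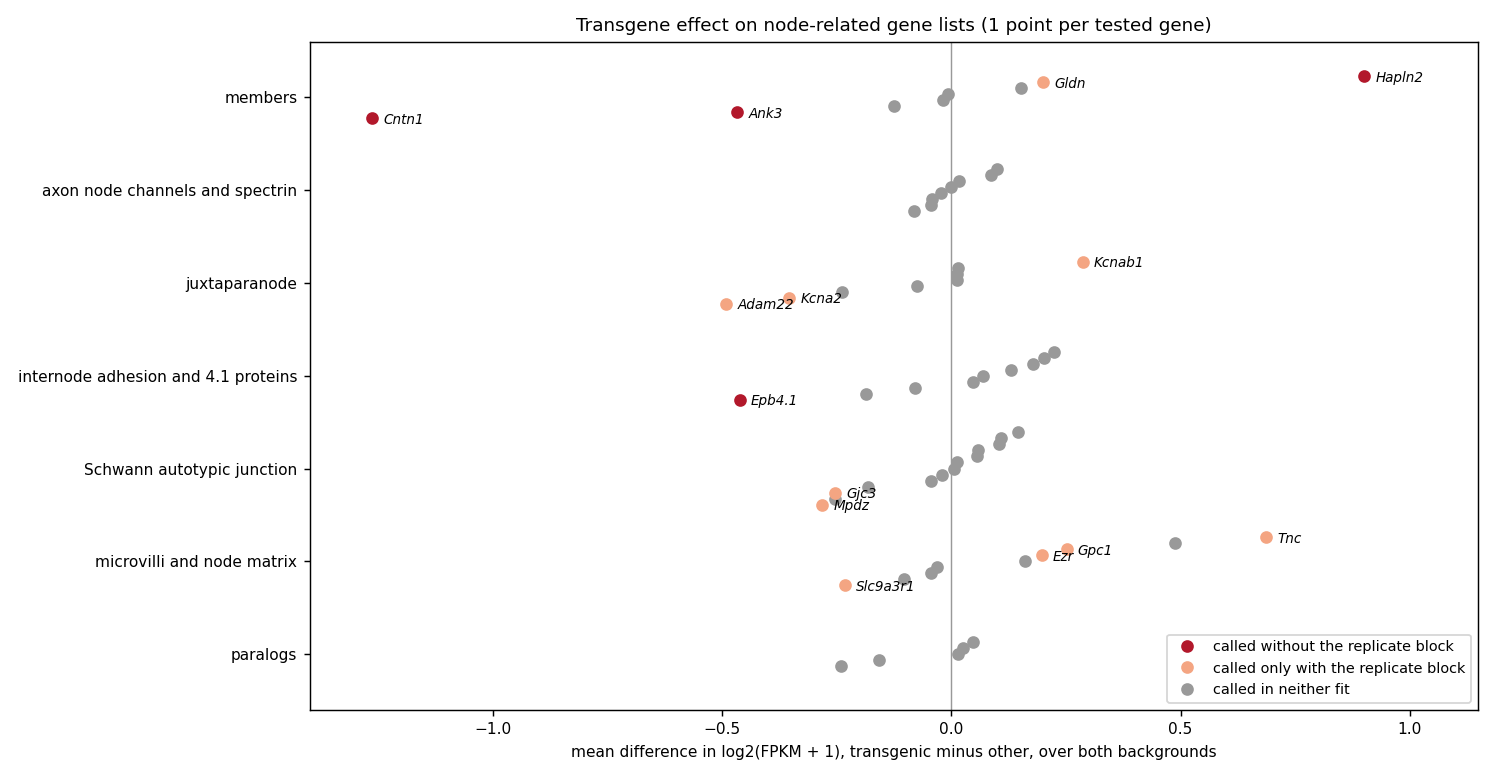
Transgene effect over both backgrounds, in log2(FPKM + 1) on the x axis, for each tested gene of the 10 genes (top row, named members), of the 5 related lists and of the paralogs; dark points were called without the replicate block, pale points only with it, and grey points in neither fit. Cntn1 at −1.26 and Hapln2 at 0.90 lie farthest from 0, and the axonal channels and spectrins lie between −0.08 and 0.10.

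Markers of the cells in the nerve were read beside these results. The 9 myelinating Schwann cell markers summed to 52756 to 71950 FPKM in the transgenic libraries and 56972 to 77824 FPKM in the others. The 6 markers of non-myelinating Schwann cells summed to 126 to 136 FPKM in the transgenic libraries and 152 to 169 FPKM in the others, without overlap. The largest part of that sum was Scn7a, at 52.5 to 67.8 FPKM in the transgenic libraries and 77.5 to 96.4 FPKM in the others. The rest of the sum overlapped between these libraries. Of the 6 markers, 4 had a difference below 0 over both backgrounds and 2 above. With the block Scn7a, Cdh2 and Ncam1 fell and Ngfr rose. The 9 axon markers summed to 865 to 1161 and 749 to 1180 FPKM, a sum made mostly of Sncg. Of these 9, 6 had a difference below 0 over both backgrounds and 3 above. Nefh, the heavy neurofilament, fell without the block (by 1.02, limma adjusted p = 0.0467). With the block Nefl, Nefm, Nefh, Prph and Stmn2 fell and Uchl1 rose. Nefh had 1.54 and 2.01 FPKM in HA-NRG1 type III/+, against 4.33 and 6.39 FPKM in WT, and 1.86 and 2.95 FPKM in HA-NRG1 type III/+:Q215X/+, against 5.51 and 4.70 FPKM in Q215X/+. The lower Cntn1 and Ank3 values thus came with lower values of the neurofilaments and of Scn7a, Cdh2 and Ncam1 in the same libraries. Ngfr and Uchl1 went the other way with the block. Tubb3 and Sncg, axon markers called in neither fit, also had higher means with the transgene on each background. The part of all these marker changes in the results was not tested. The 7 oligodendrocyte markers, of which 2 passed the level for testing, summed to 574 to 684 FPKM in the transgenic libraries and 740 to 927 FPKM in the others, without overlap. Olig2 was at 0 in all libraries, Mog did not exceed 0.125 FPKM, Opalin did not exceed 0.241 FPKM, and Mobp ran from 0.263 to 0.535 FPKM in the transgenic libraries and from 1.07 to 1.77 FPKM in the others.

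Among the fibroblast, macrophage, endothelial and perineurial markers, only the fibroblast sum was higher in every transgenic library than in all others, as Hapln2 was. The 5 fibroblast markers summed to 3829 to 4370 FPKM in the transgenic libraries and 3193 to 3609 FPKM in the others, without overlap. Over both backgrounds 4 of the 5 had a difference above 0 and 1 below. Of the 5, 0 were called without the block and 1 with it. Lum, which encodes the matrix proteoglycan lumican, rose with the block on both backgrounds and over their average, by 0.56 (limma adjusted p = 0.00462, and 0.0569 without the block). Of the 6 macrophage markers 5 were in the table, all with a positive difference over both backgrounds, and they summed to 106 to 125 FPKM in the transgenic libraries and 79.3 to 113 FPKM in the others, which overlapped. Cx3cr1, the fractalkine receptor of macrophages, rose with the block on both backgrounds and over their average, by 0.78 (limma adjusted p = 0.00531, and 0.149 without the block). The 5 endothelial markers summed to 120 to 158 FPKM in the transgenic libraries and 97.6 to 153 FPKM in the others. Over both backgrounds 4 of the 5 had a difference above 0. The 1 below 0 was Kdr, an endothelial receptor, which fell by 0.25 and was called with the block (limma adjusted p = 0.0280). The 4 perineurial markers summed to 273 to 361 FPKM in the transgenic libraries and 308 to 371 FPKM in the others, with overlap, and 0 of 4 were called in limma in either fit, with 1 reaching an unadjusted p of 0.05 in each. The part of these cells in the higher Hapln2 values was not tested.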

How the data were processed

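Poly A selected RNA of 8 sciatic nerve libraries was sequenced after TruSeq preparation, per the labels. The deposited table gives FPKM per gene and library, as the authors computed it. The submitters' processing notes list TopHat2 2.0.9, Cufflinks 2.2.0 and the build mm10; how each was used, the annotation, the use of strand and any filters are not stated there. All 23356 lines have an empty field behind the symbol that the header lacks, so the 8 names were matched to the 8 values that follow. Columns were assigned to genotypes by the stem of their names, with the abbreviated stem of the transgenic group assigned by elimination, and 0 value columns went unused. The endings 0 and 1 are called sets, and no label links them to replicate numbers. Depth is unknown from FPKM, so there are no counting intervals.

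Differences were tested on log2(FPKM + 1) with limma 3.58.1 in R 4.3.3, for genes averaging 1 FPKM or more, in a model of 4 genotype means (4 residual degrees of freedom) with a trended eBayes prior. Genes with a Benjamini-Hochberg adjusted p under 0.05 over all 12530 tested were called. The model was tested on simulated data. The average transgene effect is the mean of the differences on the WT and the mutant background. With 2 libraries against 2, an exact two-sided permutation p cannot be under 0.333, so none is given. The set 1 minus set 0 differences correlated across genes at r = 0.118 to 0.304 in all 6 pairs of genotypes, so the sets were taken as paired, from the data rather than the labels, and a fit with the set as replicate block (3 residual degrees of freedom) is given where it changes a call.

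Alternatives were a pseudocount of 0.1, no filter, 2 other scalings, a term for sex, other eBayes priors, only the groups compared, and each library left out. Combinations of pseudocount, filter and block were added after seeing the data. The 10 genes and the related lists were chosen with earlier results of these data known. All 10 are named; of each list, every called gene and the pair with the smallest p over both backgrounds are named, and for the widest-ranging pair of the 10 the 5 closest genes. Markers are given as sums, with those a result turns on. A few genes that these rules pick are not reported here.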

Additional observations from a re-analysis of the deposited data

How the results depend on the processing

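Counts below are of the tested genes of the set that were called. Over both backgrounds the count was 3, with 1 to 2 when 1 library was left out (1 without the set 0 library of WT, the set 1 library of Q215X/+ or either library of HA-NRG1 type III/+:Q215X/+), and with the replicate block 4, with 2 to 3 (2 without either library of HA-NRG1 type III/+:Q215X/+). In HA-NRG1 type III/+ against WT the count was 1, and 3 with the replicate block. It was 0 with no filter at either pseudocount, with scaling without short RNA, muscle and globin genes, with a term for sex, with only the groups compared, and without any 1 library. With the block it was 0 with a term for sex, 0 with no filter, 1 with the pseudocount of 0.1 and no filter, and 0 to 3 with 1 library left out. In HA-NRG1 type III/+:Q215X/+ against Q215X/+ the count was 1, and 3 with the replicate block. It was 0 with the same settings and also with the pseudocount of 0.1 alone or median scaling, and 0 without any 1 library. With the block it was 0 with a term for sex, 1 with no filter at either pseudocount, and 0 to 2 with 1 library left out. In HA-NRG1 type III/+:Q215X/+ against WT the count was 1, with 3 under the block, 2 without the eBayes trend, 2 with robust eBayes, 0 with only the groups compared, 0 to 1 with 1 library left out (0 without any library of either group), and 0 to 3 with the block (1 without the set 0 library of WT, 0 without the other 3). Where a genotype is left with 1 library, that library is assumed to vary like the other genotypes. Over both backgrounds, under 30 alternatives, Cntn1 was called in 30 (−2.08 to −1.22), Hapln2 in 26 (0.84 to 1.42), Ank3 in 16 (−0.52 to −0.42) and Gldn in 3 (0.13 to 0.27), and no difference of these 4 genes reversed. The ranges in brackets include fits with the pseudocount of 0.1, a scale on which low genes such as Cntn1 and Hapln2 differ more. Beyond the values given with the results, the block changed no call of the 10 genes. Cntn2 and Sptbn4 are too low for the filtered test, and FPKM gives no counts with which to bound their error.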
